A study of Sus scrofa with 6 samples.

Results

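Cytosolic ribosomal protein genes encode the proteins of the ribosomes that translate messenger RNA in the cytoplasm. They were followed in left atrial tissue of 6 male miniature pigs of the Lanyu breed, with 1 porcine Affymetrix expression array for each animal. A gene was taken where a probe set of the array carried a single gene symbol that begins with RPL or RPS and a digit, or the symbol RPSA, RPLP0, RPLP1 or RPLP2. The RPS6K kinases were left out. This gave 64 genes of the 6765 that the array names by a single symbol. They comprised 34 proteins of the large (60S) subunit, 24 of the small (40S) subunit, 5 paralogs (RPL22L1, RPL26L1, RPL36AL, RPL7L1 and RPS27L) and RPS19BP1, a protein that binds RPS19 and is no part of the ribosome. Each gene was represented by its brightest probe set, and 61 of the 64 passed a filter on dim probe sets. RPL26, RPL30 and RPS15A did not pass, with intensities between 19.2 and 37.1 on all arrays.

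All animals were 18 months old and had the same diet and housing. The normal controls (NC, n = 2) have no operation recorded for them, so a difference from NC holds the operation together with the lesion. In the mitral regurgitation animals (MR, n = 2), a 2.8 mm hole had been made in the posterior leaflet of the mitral valve (its middle scallop), through which blood flows back into the left atrium, and tissue was taken 12 months later. The third group (MRV, n = 2) had the same hole and was given 3.43 mg/kg/day of valsartan, a type I angiotensin II receptor blocker, beginning 1 week before the operation and continuing each day afterwards, with tissue taken at the same 12 months. Arrays are named by group and replicate number, as in NC1. With 2 animals a group, a p-value measures only the spread between these 6 animals, and the precision of all values is limited by the number of arrays.

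Ribosomal proteins are made in amounts close to one another, because each ribosome holds a fixed set of them and unassembled copies are degraded. Their mRNAs begin with a run of pyrimidines, the 5' terminal oligopyrimidine (TOP) tract, through which the mTOR kinase and the RNA-binding protein LARP1 regulate how well they are translated. Heart muscle that grows under load is known to make more ribosomes, mostly through synthesis of ribosomal RNA.

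The tissue label was checked against 13 cardiomyocyte markers. Of these 10 were measured, all 10 passed the filter, and their summed intensity lay between 132685 and 139944 on the 6 arrays. NPPA, the atrial natriuretic peptide, read 18414 to 20170. Of 15 leukocyte markers 9 were measured and 2 passed the filter, CD163 and AIF1. CD163 differed between arrays of 1 group, at 291 and 244 (NC), 128 and 347 (MR) and 121 and 324.5 (MRV). AIF1 read 57.6 to 100.5. PTPRC, the general leukocyte marker, lay below the filter at 16 to 19. Array medians were alike, at 90.2 to 93.4. The ventricular light chain MYL2 stood apart on MR1 at 10693, against 2318 on MR2 and 152 to 954 on the other 4 arrays. It was 1 of 4 ventricular markers measured, and the others did not set MR1 apart in this way. MYL3 read 8316 to 10583, with 10583 on MR1 and 10329 on MR2. MYH7 read 20478 to 21652 and HEY2 67 to 98. In bulk atrium, fewer cells of a type and less RNA per cell cannot be told apart.

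The comparison of MR with NC addressed how atrial RNA differs with and without regurgitation. Ribosomal protein mRNAs were slightly higher in MR as a body: 54 of the 61 genes had a higher mean in MR and 7 a lower one. The median log2 difference was 0.079 on the log2(intensity + 16) scale used throughout, a ratio of 1.06, against 0.0076 over all 5408 genes tested. The largest differences were 0.27 for RPL36AL and 0.24 for RPS12, and the lowest was -0.07 for RPL22L1. None of the 61 passed limma's Benjamini-Hochberg adjusted p of 0.05, and 1 had an unadjusted p below 0.05. Over all 14400 probe sets tested, 1 (0.00694%) passed the adjusted threshold and 579 had an unadjusted p below 0.05. Both MR arrays lay above both NC arrays for 16 members (26.2%), against a background of 15.7% of all genes, and both lay below for 0 members, against 12.4%. Among 124 other genes of like brightness the shares were 25.8% above and 14.5% below, so the members' share above was close to that of bright genes. The 95% interval of each of the 61 differences lay within a 1.5-fold change in either direction, with outer bounds of -0.44 and 0.57.

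The median over members depended on which animals were used. Without NC2 it was 0.025 and without MR2 it was 0.014, while without NC1 it was 0.14 and without MR1 it was 0.13. With either NC2 or MR2 left out, 36 members were higher in MR and 25 lower. The median thus stayed above 0 in all 4 cases, at sizes that differed several-fold. The counts without overlap depended on the control animal too. Without NC2, both MR arrays lay above NC1 for 19 members (31.1%, background 30.7%) and below for 16 (26.2%, background 38.7%). Without NC1 they lay above NC2 for 50 (82.0%, background 42.7%) and below for 2 (3.28%, background 26.8%).

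**Figure D1:**
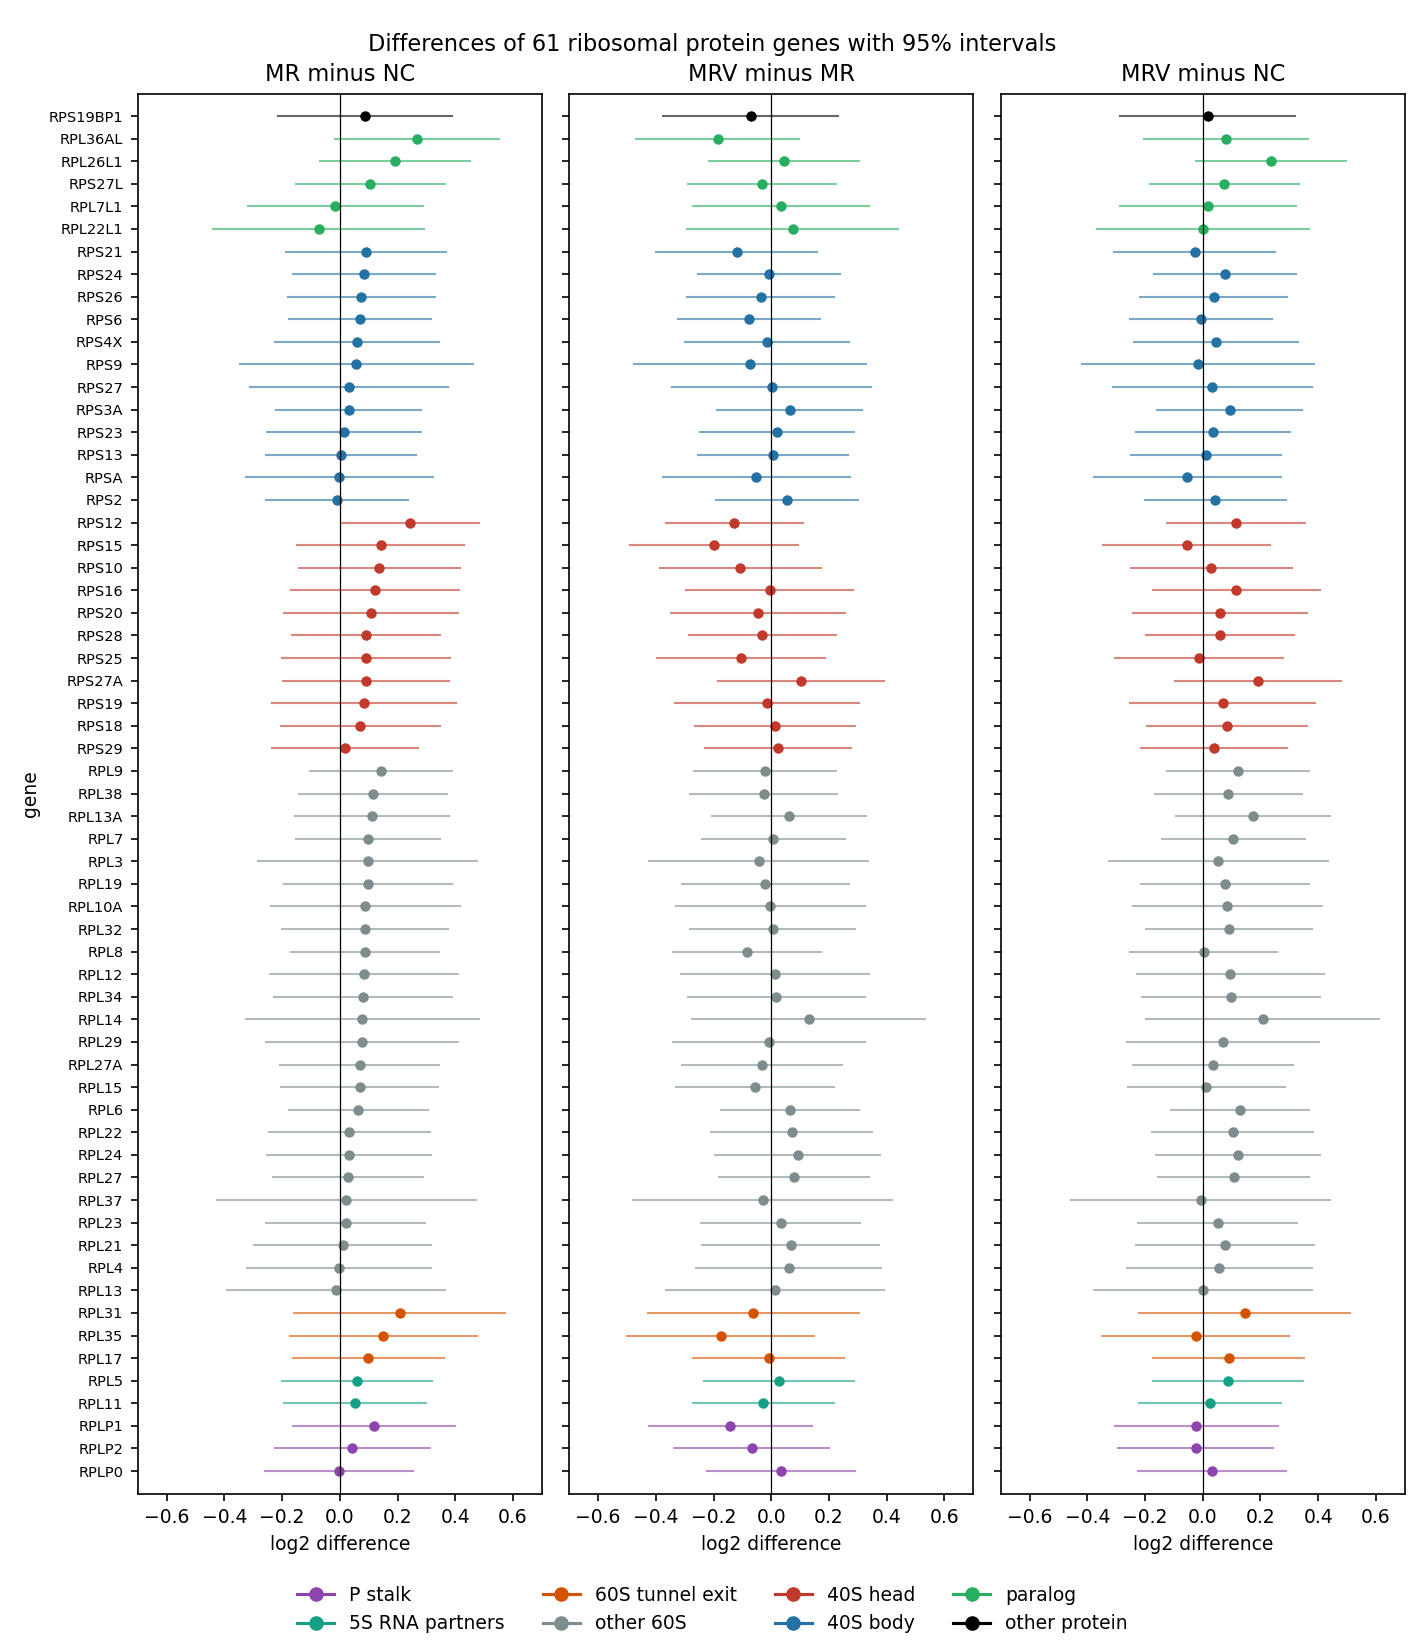
Log2 difference of the 61 ribosomal protein genes that passed the filter (points) with the 95% interval from limma (lines), in 1 panel for each pair of groups, coloured by role. Most points lie to the right of 0 in the panels that set MR or MRV against NC, and every line crosses 0 except that of RPS12 in the first panel.

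Proteins of the head of the 40S subunit, the part that swivels as the ribosome moves along mRNA, were higher in MR in 11 of 11 cases, with a median log2 difference of 0.091. RPS12, a head protein, had the smallest unadjusted p of the members. Its intensity was 6916 and 6735 (NC), 8156 and 7990 (MR) and 7435 and 7341 (MRV). The replicates of each group were close together, the groups did not overlap, and MRV lay between NC and MR. The mean was 6825 ± 128 in NC and 8073 ± 118 in MR (SD, n = 2), a log2 difference of 0.24 (SE 0.10, limma unadjusted p = 0.048, adjusted p = 0.999955). RPS15, whose tail reaches toward the decoding centre, read 6906 and 6456 (NC), 7185 and 7552 (MR) and 5991 and 6880 (MRV). It was above both NC arrays on both MR arrays and had the lowest MRV minus MR difference of all members, at -0.20 (SE 0.12). RPS10, which lies near the mRNA entry site, read 5943 and 5238 (NC), 6018 and 6256 (MR) and 5539 and 5852 (MRV).

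RPS27A is made as a fusion with ubiquitin, from which the ribosomal protein is cleaved. It read 9052 and 9082 (NC), 8919 and 10443 (MR) and 10403 and 10318 (MRV). The NC arrays were nearly equal, MR1 lay below them, and the other 3 arrays formed a higher group, with an MRV minus NC difference of 0.19 (SE 0.12). RPS19, the protein most often mutated in Diamond-Blackfan anaemia, read 8560 and 7615 (NC), 8063 and 9091 (MR) and 8983 and 7979 (MRV), so that its groups overlapped in every comparison.

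In the 12 measured proteins of the body of the 40S subunit, 10 were higher in MR, with a median of 0.044. RPS6, the classical substrate of the S6 kinases, read 7923 and 7632 (NC), 7949 and 8376 (MR) and 7795 and 7681 (MRV). Its MR arrays were the highest in the series, by a log2 difference from NC of 0.07 (SE 0.10). RPSA, also known as a laminin receptor precursor, read 5586 and 4944 (NC), 5156 and 5346 (MR) and 5514 and 4649 (MRV), and RPS2 read 8909 and 8370, 8509 and 8648, and 8886 and 8918. These 2 were the body proteins with a difference below 0 in MR, of -0.0015 and -0.01. RPS4X, the X-linked form of RPS4, had differences of 0.06 in MR against NC and -0.01 in MRV against MR. RPS27, a zinc finger protein of the 40S subunit, had 0.03 and 0.00097.

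**Figure D2:**
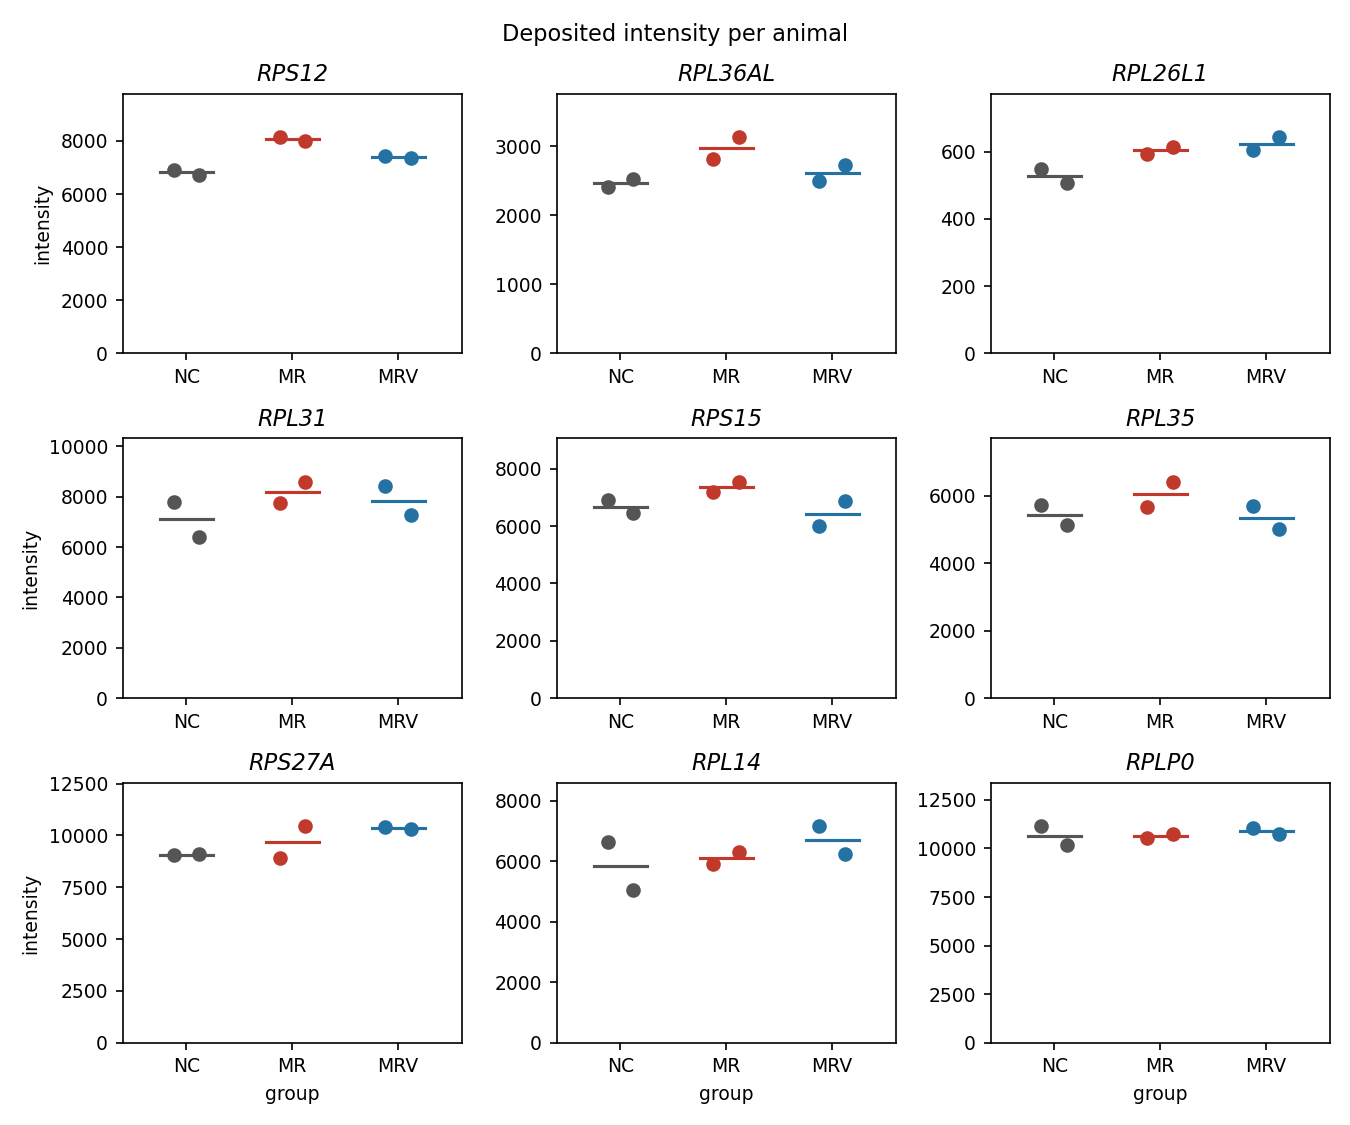
Deposited intensity (linear scale, axis from 0) of 9 ribosomal protein genes in each animal (points) with the group mean (lines). RPS12 shows 3 separate groups with MRV between NC and MR, whereas the NC arrays of RPLP0 span those of MR and MRV.

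At the exit of the 60S tunnel the growing chain leaves the ribosome and targeting factors dock. In the grouping used here, proteins there were represented by RPL17, RPL31 and RPL35, a choice on which their median of 0.15 in MR depends. RPL31 read 7786 and 6411 (NC), 7746 and 8602 (MR) and 8419 and 7254 (MRV). RPL35 read 5735 and 5145 (NC), 5669 and 6421 (MR) and 5701 and 4999 (MRV). On these probe sets both were lowest or nearly lowest on NC2 and highest on MR2, and in both the NC and MR arrays overlapped. A dimmer probe set of RPL35 read 232 and 258 (NC), 217 and 229.5 (MR) and 229 and 229 (MRV). There both MR arrays lay below both NC arrays, at -0.13 (SE 0.11), and the MRV minus MR difference was 0.035. The directions of RPL35 thus depended on the probe set. RPL17 read 9832 and 9404, 9806 and 10811, and 10179 and 10289.

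The stalk proteins RPLP0, RPLP1 and RPLP2 recruit the GTPases that drive elongation. RPLP0 read 11139 and 10184 (NC), 10537 and 10733 (MR) and 11047 and 10749 (MRV), with a difference of -0.0022 (SE 0.10) in MR against NC. RPLP1 read 5677 and 5215, 5597 and 6245, and 5485 and 5235. RPLP2 read 2176 and 1944, 2074 and 2166, and 2002 and 2041. On these probe sets both MRV arrays lay below both MR arrays for RPLP1 and RPLP2 and above them for RPLP0. The differences were -0.14, -0.07 and 0.04. A dimmer probe set of RPLP0 read 546 and 523 (NC), 626 and 613 (MR) and 468 and 488 (MRV). Its MRV minus MR difference was -0.36 (SE 0.10), and that of a dimmer probe set of RPLP1 was 0.11 (SE 0.17). The directions of RPLP0 and RPLP1 thus depended on the probe set.

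RPL5 and RPL11 bind the 5S ribosomal RNA and, when ribosome assembly is disturbed, hold back MDM2 and so stabilise p53. RPL5 read 6818 and 6806 (NC), 6763 and 7459 (MR) and 7335 and 7142 (MRV). RPL11 read 9656 and 9526, 9668 and 10233, and 9881 and 9640. Their differences in MR were 0.06 and 0.05, smaller than the standard errors of 0.10.

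Among the other 60S proteins 22 of 24 were higher in MR, with a median of 0.078. RPL3, which reaches into the peptidyl transferase centre, read 3184 and 2462 (NC), 2820 and 3184 (MR) and 2944 and 2868 (MRV). Its spread between the NC animals was larger than any difference between group means. RPL38, known for its part in the translation of certain Hox mRNAs, read 4103 and 3963, 4239 and 4499, and 4423 and 4155. All 4 arrays of the operated animals lay above both controls on this probe set of RPL38, at 0.11 (SE 0.10) in MR against NC. A dimmer probe set of RPL38 read 208 and 213, 195.5 and 249, and 235 and 168, and its groups overlapped. RPL4 and RPL13, both structural proteins of the large subunit, had the lowest 60S differences in MR, of -0.0026 and -0.01. The group as a whole ran from -0.01 to 0.14 in MR against NC, from -0.08 to 0.13 in MRV against MR and from -0.01 to 0.21 in MRV against NC.

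The paralogs held both ends of the range in MR against NC. RPL36AL, a close copy of RPL36A, read 2403 and 2526 (NC), 2811 and 3136 (MR) and 2489 and 2730 (MRV). RPL26L1, a close copy of RPL26, read 548.5 and 507 (NC), 594 and 615 (MR) and 604 and 644 (MRV). Both were above NC on both MR arrays, by 0.27 (SE 0.12) and 0.19 (SE 0.10), but only RPL26L1 was also above NC on both MRV arrays. RPL22L1, the paralog of RPL22, read 912 and 706, 728 and 797, and 790 and 815, and RPL22 read 10043 and 9876, 9604 and 10810, and 11127 and 10296. RPL22L1 was highest on NC1 and lowest on NC2, and its difference of -0.07 in MR was smaller than its standard error of 0.15. RPS27L, a paralog of RPS27 known as a target of p53, read 1107 and 1007, 1128 and 1147, and 1124 and 1102. RPL7L1, a paralog of RPL7, had a difference of -0.02 in MR. RPS19BP1, the one gene here that encodes no ribosomal protein, had 0.09 (SE 0.12). Probe sets can read close copies and pseudogenes of these genes together. Those of RPL27, RPL31, RPS27L and RPS28 carry the suffix s_at or x_at, of the kinds that Affymetrix gives to probe sets matching more than 1 transcript. The suffix a_at, another of these kinds, is carried by those of RPL13, RPL22, RPS15, RPS18, RPS21 and RPS26.

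The comparison of MRV with MR addressed what differs in regurgitation with valsartan. The members had no common direction: 27 were higher and 34 lower in MRV, with a median log2 difference of -0.0084, against -0.031 over all genes. None passed the adjusted threshold in limma (smallest adjusted p = 0.76) and 0 had an unadjusted p below 0.05. Over all probe sets 0% passed the adjusted threshold, and 1048 had an unadjusted p below 0.05. Both MRV arrays lay above both MR arrays for 5 members (8.20%, background 15%) and below for 11 (18.0%, background 28.7%). The direction of the median turned to 0.014 with quantile normalization, which put 33 members higher and 28 lower, and 13 above (21.3%) and 7 below (11.5%) without overlap, against 18.6% and 25.4% of all genes under the same normalization. It was 0.043 without MR2 and 0.027 without MRV2, and -0.068 without MR1 and -0.041 without MRV1. Without MR1, both MRV arrays lay above MR2 for 6 members (9.84%, background 25.4%) and below for 40 (65.6%, background 45.5%). Without MR2 they lay above MR1 for 31 (50.8%, background 32.4%) and below for 12 (19.7%, background 41.1%). All 61 intervals lay within a 1.5-fold change.

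Below RPS15, the lowest MRV minus MR differences were -0.19 for RPL36AL, -0.18 for RPL35, -0.14 for RPLP1 and -0.13 for RPS12. These genes were also among those with higher MR than NC means, and both comparisons share the MR arrays. The highest differences were 0.13 for RPL14, 0.10 for RPS27A, 0.09 for RPL24, 0.08 for RPL27 and 0.07 for RPL22L1. RPL14, a structural protein of the large subunit, read 6622 and 5042 (NC), 5899 and 6312 (MR) and 7153 and 6230 (MRV), and its groups overlapped. RPL24, which helps form a bridge between the subunits, read 7495 and 7313, 7135 and 8034, and 8446 and 7702. RPL27 read 6510 and 6039, 6257 and 6538, and 6971 and 6551, with both MRV arrays above both MR arrays by a small margin. On a further probe set of RPL27, also bright, these groups overlapped, at 5028 and 5395 (MR) and 5561 and 5373 (MRV).

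The comparison of MRV with NC completes the 3 groups. Of the members 50 were higher in MRV and 11 lower, with a median log2 difference of 0.060, against -0.023 over all genes. None passed the adjusted threshold in limma (smallest adjusted p = 0.90) and 0 had an unadjusted p below 0.05. Over all probe sets 0% passed and 762 had an unadjusted p below 0.05. Both MRV arrays lay above both NC arrays for 19 members (31.1%, background 13.3%) and below for 1, RPS21 (1.64%, background 21.8%). The largest differences were 0.23 for RPL26L1 (SE 0.10), 0.21 for RPL14 and 0.19 for RPS27A. The 95% interval lay within a 1.5-fold change for 60 of the 61 members, and that of RPL14 reached 0.61. RPL13A, known for a second life off the ribosome in translational silencing, read 7040 and 6508 (NC), 7071 and 7573 (MR) and 7858 and 7423 (MRV). It was above both controls on all 4 arrays of operated animals, at 0.17 (SE 0.11) in MRV against NC. RPS21, on the 40S body, read 5108 and 4955 (NC), 5008 and 5742 (MR) and 4928 and 4938 (MRV). The median was 0.0047 without NC2, 0.12 without NC1, 0.038 without MRV1 and 0.093 without MRV2.

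Seen array by array, many members were high or low on the same arrays. Each gene was centred on its own mean over the 6 arrays, and the median over members was then 0.011 on NC1, -0.095 on NC2, -0.026 on MR1, 0.081 on MR2, 0.053 on MRV1 and -0.016 on MRV2. NC2 was the array with the lowest value for 44 of 61 members (72.1%), against 20.2% of all genes. MR2 was the array with the highest value for 32 (52.5%), against 18.3% of all genes. On NC2 3 members lay above their own mean, and on MR2 59 did. The 60S and 40S proteins followed the same order on both extremes, at -0.11 and -0.081 on NC2 and 0.078 and 0.086 on MR2. Arrays of 1 group thus differed by about as much as the groups: NC1 lay above NC2 by more than the median difference between MR and NC.

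**Figure D3:**
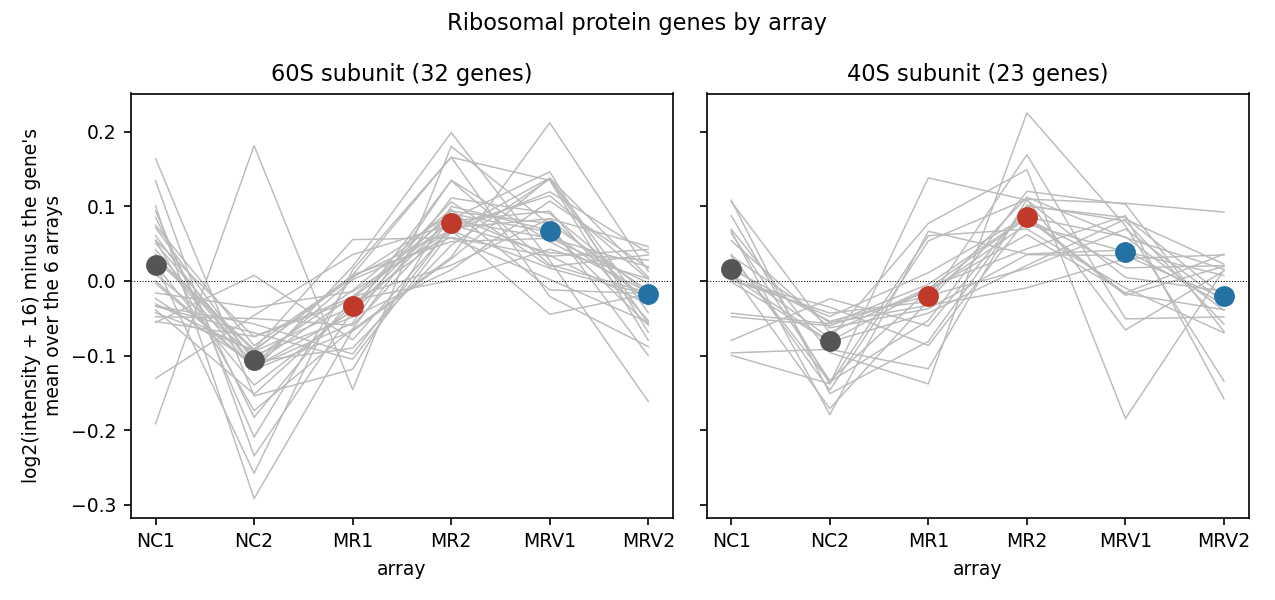
Log2(intensity + 16) of each 60S and 40S gene minus its own mean over the 6 arrays (grey lines), with the median over genes on each array (points). Both subunits are lowest on NC2 (-0.11 and -0.081) and highest on MR2 (0.078 and 0.086).

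Other bright genes were set beside the members. Over 124 other genes with mean intensities of at least 5091, the lower quartile of the members, the median was 0.022 on NC2 and 0.013 on MR2, and NC2 was the lowest array for 9.68%. Both MRV arrays lay above both NC arrays for 13.7% of these genes and below for 36.3%, and above both MR arrays for 17.7% and below for 46.0%. Among the cell type markers, 6 of 8 fibroblast markers were measured, of which COL3A1 lay below the filter. Their summed intensity was 7876 and 5538 (NC), 6060 and 6995 (MR) and 6523 and 7585 (MRV). Like the members it was lowest on NC2, but unlike them it was highest on NC1, and its part in the pattern was not tested. In the adipocyte and smooth muscle lists, the sums were lower on all 4 arrays of operated animals than on both controls. Of 8 adipocyte markers 6 were measured and 5 passed the filter (ADIPOQ did not), and their summed intensity was 3721 and 2557 (NC), 1987 and 2483 (MR) and 2204 and 1216 (MRV). Of 5 smooth muscle markers 4 were measured and passed, with sums of 7742 and 6657 (NC), 6651 and 6306 (MR) and 6300.3 and 6432 (MRV). The smooth muscle sums of NC2 and MR1 were nearly equal. Centred gene by gene, the smooth muscle median was -0.014 on NC2, below 0.090 on MR1 and 0.0078 on MR2, so that the groups overlapped. The adipocyte median was 0.76 and 0.15 (NC), -0.16 and -0.26 (MR) and 0.00054 and -0.38 (MRV). The part of both lists in the differences of the members from NC was not tested. The 3' to 5' signal ratio of the actin control, a measure of RNA integrity, was 1.61 and 1.91 (NC), 1.44 and 1.70 (MR) and 2.30 and 1.87 (MRV). With this ratio as a covariate the median difference of MR against NC was 0.086. Within groups, the median standard deviation of a member was 0.084 on the log2 scale, compared with 0.13 over all genes and 0.068 over the other bright genes.

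Outside the family, the 5 genes whose centred profile lay nearest to the median profile of the members were TOP2B, DAZAP1, MFSD5, CWC27 and LOC100523107. Likeness was measured as the root mean square distance over the 6 arrays, which ran from 0.020 for TOP2B to 0.025 for LOC100523107. The members themselves lay at a median distance of 0.049 and at most 0.16, so these 5 genes were nearer to the median profile than most members were. TOP2B, a DNA topoisomerase, read 1273 and 1218 (NC), 1248 and 1351 (MR) and 1308 and 1292 (MRV). With 6 arrays and 5408 genes, such closeness is a description only.

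Mitochondrial ribosomal proteins translate the few proteins encoded by mitochondrial DNA and are made from separate nuclear genes. Of 58 measured, 57 passed the filter. In MR against NC 24 were higher and 33 lower, with a median of -0.027. In MRV against MR 11 were higher and 46 lower, with a median of -0.11, and in MRV against NC 13 were higher and 44 lower, with a median of -0.12. None passed the adjusted threshold in any comparison. Both MRV arrays lay below both NC arrays for 33 of the 57 (57.9%, background 21.8%), compared with 1 of 61 cytosolic genes. The difference between the families was not tested.

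The centred median of the mitochondrial genes was 0.062 and 0.039 (NC), 0.020 and 0.029 (MR) and -0.059 and -0.083 (MRV). It thus separated the MRV arrays from the other 4, which the cytosolic median did not. MRPS27, a protein of the small mitochondrial subunit, read 686 and 667 (NC), 553 and 616 (MR) and 542 and 517 (MRV), a log2 difference of -0.35 (SE 0.11) between MRV and NC. MRPL53, of the large subunit, read 1045 and 1052, 1235 and 1190, and 932 and 928. It was highest in MR and lowest in MRV, with a difference of -0.38 (SE 0.10, limma adjusted p = 0.55) between MRV and MR. MRPL33 had the lowest MRV minus NC difference, at -0.53, with 908 and 850 in NC and 480 and 758 in MRV. MRPS5 had the highest, at 0.15.

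**Figure D4:**
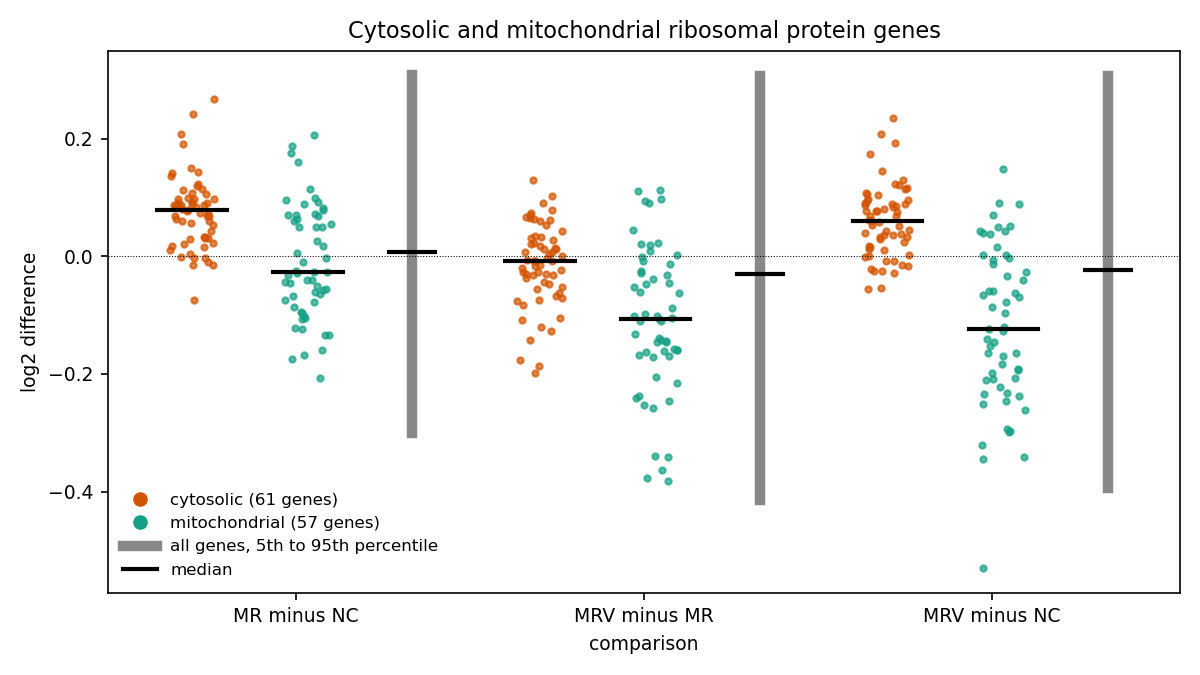
Log2 differences of 61 cytosolic and 57 mitochondrial ribosomal protein genes (points) in the 3 comparisons, with medians (black lines) and the 5th to 95th percentile of all genes tested (grey bars). The cytosolic medians are 0.079, -0.0084 and 0.060, and the mitochondrial ones -0.027, -0.11 and -0.12.

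A list of elongation factors and related genes was also followed. Of the 11 on the list, 6 were measured and all 6 were higher in MR than in NC, with a median of 0.094. In MRV against MR the median was -0.13, and 4 of the 6 were lower without overlap (66.7%, background 28.7%). EEF1E1 had both the highest difference in MR against NC, at 0.19 (SE 0.16), and the lowest in MRV against MR, at -0.37 (SE 0.16). EEF1B2, a nucleotide exchange factor for EEF1A, read 7510 and 7360 (NC), 8024 and 8114 (MR) and 7447 and 7525 (MRV). The 2 MR arrays stood above the other 4, by 0.12 (SE 0.10) from NC. EEF1A1, which brings aminoacyl-tRNA to the ribosome, read 470 and 475, 512 and 546, and 561 and 539, with all 4 arrays of operated animals above the controls. Neither passed the adjusted threshold, nor did any other of the 6.

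Initiation factors had no common shift, with medians of -0.0050, 0.0079 and -0.0039 in the 3 comparisons over 32 genes of a list of 40. Other mRNAs that begin with a TOP tract were measured for 18 of 22 genes, some of them in the lists above. Of these 13 were higher in MR than in NC (median 0.023), 12 higher in MRV than in MR (median 0.046) and 14 higher in MRV than in NC (median 0.033). None of either list passed the adjusted threshold. PABPC1, the poly(A)-binding protein, read 2223 and 2106 (NC), 1687 and 1917 (MR) and 2110 and 2259 (MRV). Its MR arrays were the lowest of the series, with a difference from NC of -0.26 (SE 0.12), unlike the ribosomal proteins. NAP1L1, a histone chaperone, read 2275 and 2230, 2163 and 2466, and 2804 and 2689, and was 0.28 (SE 0.11) higher in MRV than in NC.

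Of the 64 genes 24 had more than 1 probe set, which gave 32 further probe sets, 22 of them past the filter. The further probe set of RPL31 was also bright and followed the first. It read 7103 and 5802 (NC), 7120 and 7839 (MR) and 7717 and 6653 (MRV), for a difference of 0.22 in MR against 0.21 on the first. RPL23, a protein of the large subunit, had 3 probe sets with different patterns. The brightest read 8793 and 9185, 8652 and 9602, and 9683 and 8968, a difference of 0.02 in MR against NC. Another read 252 and 302, 680 and 507, and 440 and 590, a difference of 1.05 (SE 0.21, limma adjusted p = 0.999955), which was chosen for mention after its values had been seen. All 4 arrays of operated animals were above both controls on that probe set, and on the brightest they were not.

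The third probe set of RPL23 belongs to a group of 7 dim ones, of RPL12, RPL17, RPL23, RPL24, RPL32, RPL6 and RPS6. In each, the identifier shares its cluster number with that of the brightest probe set and differs in the letter A or S, and the probe set is at least 4-fold dimmer. The sources used here do not say what the letters mean. All 7 were lower in MR than in NC (median -0.21, range -0.39 to -0.14), and all 7 were higher in MRV than in MR (median 0.34, range 0.0055 to 0.85). The brightest probe sets of the same genes had the opposite sign in MR against NC. For RPL17 the dim probe set read 281 and 400 (NC), 224 and 293 (MR) and 371 and 465 (MRV). For RPL23 it read 283 and 627, 279 and 364, and 532 and 649. None of the 7 passed the adjusted threshold in limma (smallest adjusted p = 0.63). Further probe sets outside the 7 varied. A dim one of RPS28, with the same letter as its brightest, had differences of -0.25 in MR against NC and 0.39 in MRV against MR. The dimmer one of RPLP0 went the other way, at 0.21 and -0.36.

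The centred median of these 7 was -0.22 on NC1, 0.27 on NC2, -0.19 on MR1, -0.16 on MR2, 0.11 on MRV1 and 0.30 on MRV2. NC2, where the brightest probe sets were lowest, was thus the second highest array here. The signal of the control for 28S ribosomal RNA, a transcript without a poly(A) tail, was 117 and 468 (NC), 187 and 280 (MR) and 341 and 559 (MRV). It put the 6 arrays in the same order as the median of the 7. Over 10 pairs of the same kind from other genes, 6 dim probe sets were lower in MR than in NC and 9 were higher in MRV than in MR, with medians of -0.040 and 0.095. The centred median of these other dim probe sets was -0.041 and 0.121 (NC), -0.14 and -0.021 (MR) and -0.0010 and 0.124 (MRV). Its order over the arrays was that of the 28S control except that NC1 and MR1 changed places. The part of the 28S signal in these differences was not tested.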

How the data were processed

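RNA of 6 left atria was hybridised to 1 porcine Affymetrix array each. The deposited values are linear intensity values per probe set, normalized between arrays by the authors. MAS5 and RMA appear, with no version, in the submitters' processing notes, and the sources used here do not say which made these values. The table held 24123 probe sets. The 124 controls were left out, and gene symbols came from the platform annotation (1 symbol for 10069, several for 198, none for 13732). All 64 members were found by Entrez ID in the RefSeq gene table of Sscrofa11.1, with 0 symbols changed. Probe sets naming RPL10, RPL35A, RPL36 or RPS15 together with another gene were not used. Genome positions and sequences are not used here.

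Groups came from the sample titles. Intensities were analysed as log2(intensity + 16), which understates differences at low signal. A mean below the 40th percentile (61.4) kept a probe set out of the tests, which left 14400, or 5408 genes at 1 probe set each. Group means were fitted over all 6 arrays with limma 3.58.1 (lmFit, eBayes) under R 4.3.3 (3 residual and 2.78 prior degrees of freedom), with Benjamini-Hochberg adjustment over all 14400 probe sets at a threshold of 0.05, two-sided. The fit was tested on simulated data. No list was tested as a set. The genes named are the 5 highest and 5 lowest members per comparison, 16 members named in any case, up to 4 genes of each other list and comparison, and the 5 nearest profiles. RPS10, RPL17, the 7 dim probe sets and other genes named for a count were chosen after their values were seen. So were the further probe sets named for RPL27, RPL35, RPL38, RPLP0, RPLP1 and RPS28. Of 6 other gene lists and 10 cell type marker lists, those that bear on a result are described. The members and lists were chosen with earlier results of these data known. Alternatives changed the pseudocount (1 or 64), the filter, the normalization, the choice of probe set, the arrays in the fit, covariates and the replicate block. Same-numbered arrays were not a stated pairing, and deviations of the same number correlated at 0.34 (NC and MR), 0.20 (NC and MRV) and 0.019 (MR and MRV). Since 1 of the 3 was near 0, the numbers were not used as pairs.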

Additional observations from a re-analysis of the deposited data

How the results depend on the processing

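In none of 16 alternatives for each comparison did a ribosomal protein gene pass the adjusted threshold in limma, and the smallest adjusted p was 0.65 for MR against NC, 0.59 for MRV against MR and 0.58 for MRV against NC. The number with an unadjusted p below 0.05 was at most 2. The median difference of MR against NC stayed above 0 in 14 of 14 alternatives, from 0.053 to 0.086 with all arrays and from 0.014 to 0.14 with 1 array left out. That of MRV against NC also stayed above 0 in 14 of 14, from 0.037 to 0.096 and from 0.0047 to 0.12. That of MRV against MR was below 0 in 10 and above 0 in 4, from -0.038 with the actin ratio to 0.034 with the 28S control as a covariate, and from -0.068 to 0.043 with 1 array left out. With the replicate number as a block, 0 members passed in each comparison. Each block held 1 array of each group, so the block could not change the medians of 0.079, -0.0084 and 0.060. With all arrays, the number of members without overlap, in both directions together, was 16, 16 and 20. Leaving out 1 array leaves fewer arrays that could overlap. For MR against NC the number was then 24 to 52. It was 32 to 46 for MRV against MR and 27 to 54 for MRV against NC. As shares these were 39.3% to 85.2%, 52.5% to 75.4% and 44.3% to 88.5%, beside 58.4% to 69.5%, 70.7% to 73.4% and 62.8% to 76.1% of all genes under the same omissions. Choices that alter only the fit cannot change those numbers and were not run for them. With 2 arrays a group and a median standard error of 0.11, differences as small as most of those given here were not detectable.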

Other observations

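Ribosome assembly factors, which process ribosomal RNA and load the proteins onto it, were measured past the filter for 66 of 88 listed genes. In MR against NC 40 were higher and 26 lower (median 0.031), and none passed the adjusted threshold in any comparison. TSR2, which escorts RPS26 to the nascent ribosome, read 550 and 888 (NC), 1100 and 1011 (MR) and 1039 and 861 (MRV). EMG1, a methyltransferase for ribosomal RNA, read 580 and 1040, 1069 and 1098, and 802 and 1085. In both, NC1 stood below the other 5 arrays. FBL, the fibrillarin methyltransferase, read 584 and 544, 443 and 515, and 583 and 519, with both MR arrays below both NC arrays. NOP10, a protein of the particles that convert uridine to pseudouridine, read 2140 and 2130, 2327 and 2430, and 1812 and 2038, with all 3 groups apart and a log2 difference of -0.31 (SE 0.11) between MRV and MR.

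Regulators of ribosomal protein synthesis were measured past the filter for 10 of 31 listed genes, with 5 higher and 5 lower in MR against NC, and none passed the adjusted threshold. EIF4EBP2, a repressor of cap-dependent initiation that mTOR inactivates, read 1810 and 1659 (NC), 1421 and 1378 (MR) and 1387 and 1371 (MRV). EIF2AK2, the kinase PKR that shuts down initiation, read 178 and 223, 289 and 261, and 265 and 265. These 2 set all 4 operated animals apart from both controls, in opposite directions, at -0.30 (SE 0.10) and 0.44 (SE 0.14) in MR against NC. ATF4, the transcription factor of the integrated stress response, read 1913 and 2295, 2561 and 2305, and 1776 and 1578, a difference of -0.53 (SE 0.14, limma adjusted p = 0.55) between MRV and MR. MYC, which drives ribosome synthesis, read 185 and 133, 140 and 162, and 121 and 85.1, with a log2 difference of -0.56 (SE 0.21) between MRV and NC.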
